A study of Mus musculus with 8 samples.

Results

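The cytosolic ribosomal protein genes were followed through 8 mouse RNA-seq libraries in which the transcription factor TCF-1 was induced in fibroblasts or its gene Tcf7 knocked out, per the labels, in T-lineage cells. They were taken by name: protein-coding genes whose symbol is Rpl or Rps followed by digits, with an optional a, l, x or y, together with Rplp0, Rplp1, Rplp2 and Rpsa. Of 53465 genes in the 3T3 files and 31053 in the Scid.adh files, 80 met this rule in both, 31 of the small and 49 of the large ribosomal subunit. Kinases of the Rps6k family and pseudogenes were left out, and no measured value entered the choice. The study asked how TCF-1, the product of Tcf7 and a DNA-binding protein of early T cell development, reorganizes the folding of the genome.

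The libraries formed 4 groups with 2 in each. NIH-3T3 is a fibroblast line derived from mouse embryos. Its 3T3 normal group is labelled wild type and untreated, and its TCF1 induced group carries induced Tcf7. The headers of all 4 files of this line name cas9, an empty LRG21, pIND21_P33 and 72 hrs, while dox stands in those of the induced libraries alone, so the doxycycline goes with the induction and cannot be told apart from it. Scid.adh is a thymic lymphoma line at the DN3 stage, labelled wild type with an empty vector or Tcf7-/- (TCF1 KO). The labels do not say whether the knockout was 1 clone, and no label tells separate cultures from repeated libraries of one culture. The spread behind each p-value is thus that of 2 libraries per group and may be technical only.

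The ribosome is built from ribosomal RNA and a fixed set of proteins, with each protein present in a single copy, apart from those of the stalk. The small subunit decodes the mRNA, the large subunit joins amino acids, and the stalk of Rplp0, Rplp1 and Rplp2 recruits the factors that drive each step. Ribosomal protein mRNAs are among the most abundant in dividing cells. They typically start with a C and a run of pyrimidines, the 5′ terminal oligopyrimidine (TOP) motif, through which mTOR signalling and Larp1 control their translation. Their transcription in growing cells is raised by Myc, and their promoters are often bound by Ets factors.

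Total gene counts ran from 13850213 to 17523677 in 3T3 and from 7740198 to 10392402 in Scid.adh. Tcf7 was at 14.5 and 14.6 CPM (counts of a gene scaled to a fixed library size) in normal 3T3 and at 946 and 972 CPM after induction. Empty-vector Scid.adh had 1318 and 1325 CPM of Tcf7, and the knockout still had 646 and 624 CPM, which does not tell whether protein is made. All 12 fibroblast markers were above 1 CPM in each 3T3 library, and 11 of 12 DN3 markers in each Scid.adh library. The summed fibroblast markers of Scid.adh were at 684 and 723 CPM in the control and 419 and 386 CPM in the knockout, a sum made up mostly of Thy1, which T cells express too, and Pdgfrb. Of the 8 fibroblast markers tested there, 4 rose (Col1a1, Col1a2, Col5a1 and Pdgfra) and 3 fell (Thy1, Pdgfrb and S100a4). The summed DN3 markers of Scid.adh were at 5639 and 5571 CPM against 4882 and 5044 CPM, and the part of such shifts in the results was not tested. In both lines the bulk RNA cannot tell fewer cells expressing a gene from less RNA per cell.

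Of the 80 genes, 60 had an entry in the RefSeq promoter table (GRCm38.p6), which covers 250 bases before and 50 after the annotated start. A TOP-like start, defined as a C at the annotated start followed by at least 4 pyrimidines, was found in 13 of these 60 genes (21.7%) and in 3.0% of all 27025 genes with an entry. The starts of 4 of them are shown with 10 bases upstream and 20 bases from the start on, the pyrimidine run in capitals, because they show the motif in genes on both sides of the changes described below. Rps15a rose in the Scid.adh knockout and Rpl35 and Rpl28 fell, while Rps21 lay higher there without passing the test.
Rps15a, chr7:118116128-118116157, minus strand: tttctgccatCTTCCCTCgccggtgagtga
Rps21, chr2:180257369-180257398, plus strand: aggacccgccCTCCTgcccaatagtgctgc
Rpl35, chr2:39005112-39005141, minus strand: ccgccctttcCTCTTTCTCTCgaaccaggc
Rpl28, chr7:4792955-4792984, plus strand: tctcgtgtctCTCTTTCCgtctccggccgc
The run was 5 bases long in Rps21 and 11 in Rpl35. A gene with several starts was counted when any of them had the motif. The starts printed for Rps21 and Rps15a lie 2 and 41 bases from the gene start in GENCODE M21, and those of Rpl28 and Rpl35 lie 91 and 493 bases from it, and a missing run says only that the letters are not at the annotated start.

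The motif CCGGAAG, the core bound by Ets factors, stood on either strand in 25 of the 60 genes (41.7%) and in 9.9% of all genes. A gene was counted when any of its windows held the motif. CTTTGAT and CTTTGAA, the letters TCF-1 and Lef1 bind in vitro, were each found in 0 of 60 genes on either strand, against 4.3% and 5.9% of all genes. TATAAA was in 6 of 60 genes against 15.7% of all, and CACGTG, the E-box of Myc, in 6 of 60 against 8.1% of all. The 100 bases before the start are given for the gene that fell most in the Scid.adh knockout, Rps2, and for Rps21, whose change differed between the lines with the opposite sign, with CCGGAAG in capitals.
Rps2, chr17:24719963-24720062, plus strand: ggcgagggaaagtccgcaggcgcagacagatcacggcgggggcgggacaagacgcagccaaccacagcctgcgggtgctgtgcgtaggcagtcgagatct
Rps21, chr2:180257279-180257378, plus strand: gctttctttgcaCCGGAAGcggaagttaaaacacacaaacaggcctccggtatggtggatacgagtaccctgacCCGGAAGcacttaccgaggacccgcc
The window of Rps21 held the motif 2 times and that of Rps2 did not hold it. The same 100 bases of Rpl18 and of Rps15a, not printed, held it 0 times. The starts used for Rps2 and Rpl18 lie 1947 and 2614 bases from the gene start in GENCODE M21. Those of Rps21 and Rps15a lie 2 and 41 bases from it, so the windows are not alike in position. Rps15a differed between the lines with the same sign as Rps21. These matches describe the letters only.

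Levels differed widely among the genes although their proteins are used in equal numbers. The summed level of the 80 genes was 17146 and 16727 CPM in normal 3T3 and 16228 and 16628 CPM after induction, or 1.63% to 1.69% of all gene counts. The sums in Scid.adh were 30532 and 31319 CPM in the control and 29428 and 27994 CPM in the knockout. Both knockout sums lay below both control sums on this scale, which uses TMM factors of 0.957 and 0.953 in the controls and 1.07 and 1.03 in the knockout. As plain shares of the gene counts the order was not kept: 2.92% and 2.98% with the empty vector, 3.13% and 2.87% in the knockout, so the groups overlapped.

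Per kb of annotated exon, Rplp1, a stalk protein, was the highest in both lines, at 751 CPM per kb in 3T3 and 1493 in Scid.adh. Rpl4 (584 and 903 CPM per kb), whose loop narrows the peptide exit tunnel, and Rpl8 (525 and 1334), next to the peptidyl transferase centre, took the next places in both lines, in opposite order. In normal 3T3 the range of Rplp1 over the 2 libraries was 724 to 765 CPM per kb. That of Rpl4 was 589 to 590 and that of Rpl8 511 to 517. On this length these 3 were apart beyond the spread of the libraries, which leaves out the uncertainty of the length. Rplp0 followed at 416 to 429 CPM per kb and did not differ beyond the spread from Rpl36 at 416 to 421. Rpl35a was the lowest of the genes present in both lines, at 6.37 and 22.6 CPM per kb. From the 10th to the 90th percentile the levels per kb covered a 10.9-fold range in 3T3 and an 8.27-fold range in Scid.adh. The order was much alike in both lines (Pearson r 0.88, Spearman rho 0.86 across 77 genes, a description across genes that share length and sequence). Length is that of the union of annotated exons, and the median level was 84.9 CPM per kb in 3T3 and 138 in Scid.adh. The longest annotated transcript has 499 bases for Rplp1, 1538 for Rpl4 and 1020 for Rpl8. With that length Rplp1 led in neither line: Rpl4 stood above it in 3T3 and Rpl8 in Scid.adh.

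**Figure D1:**
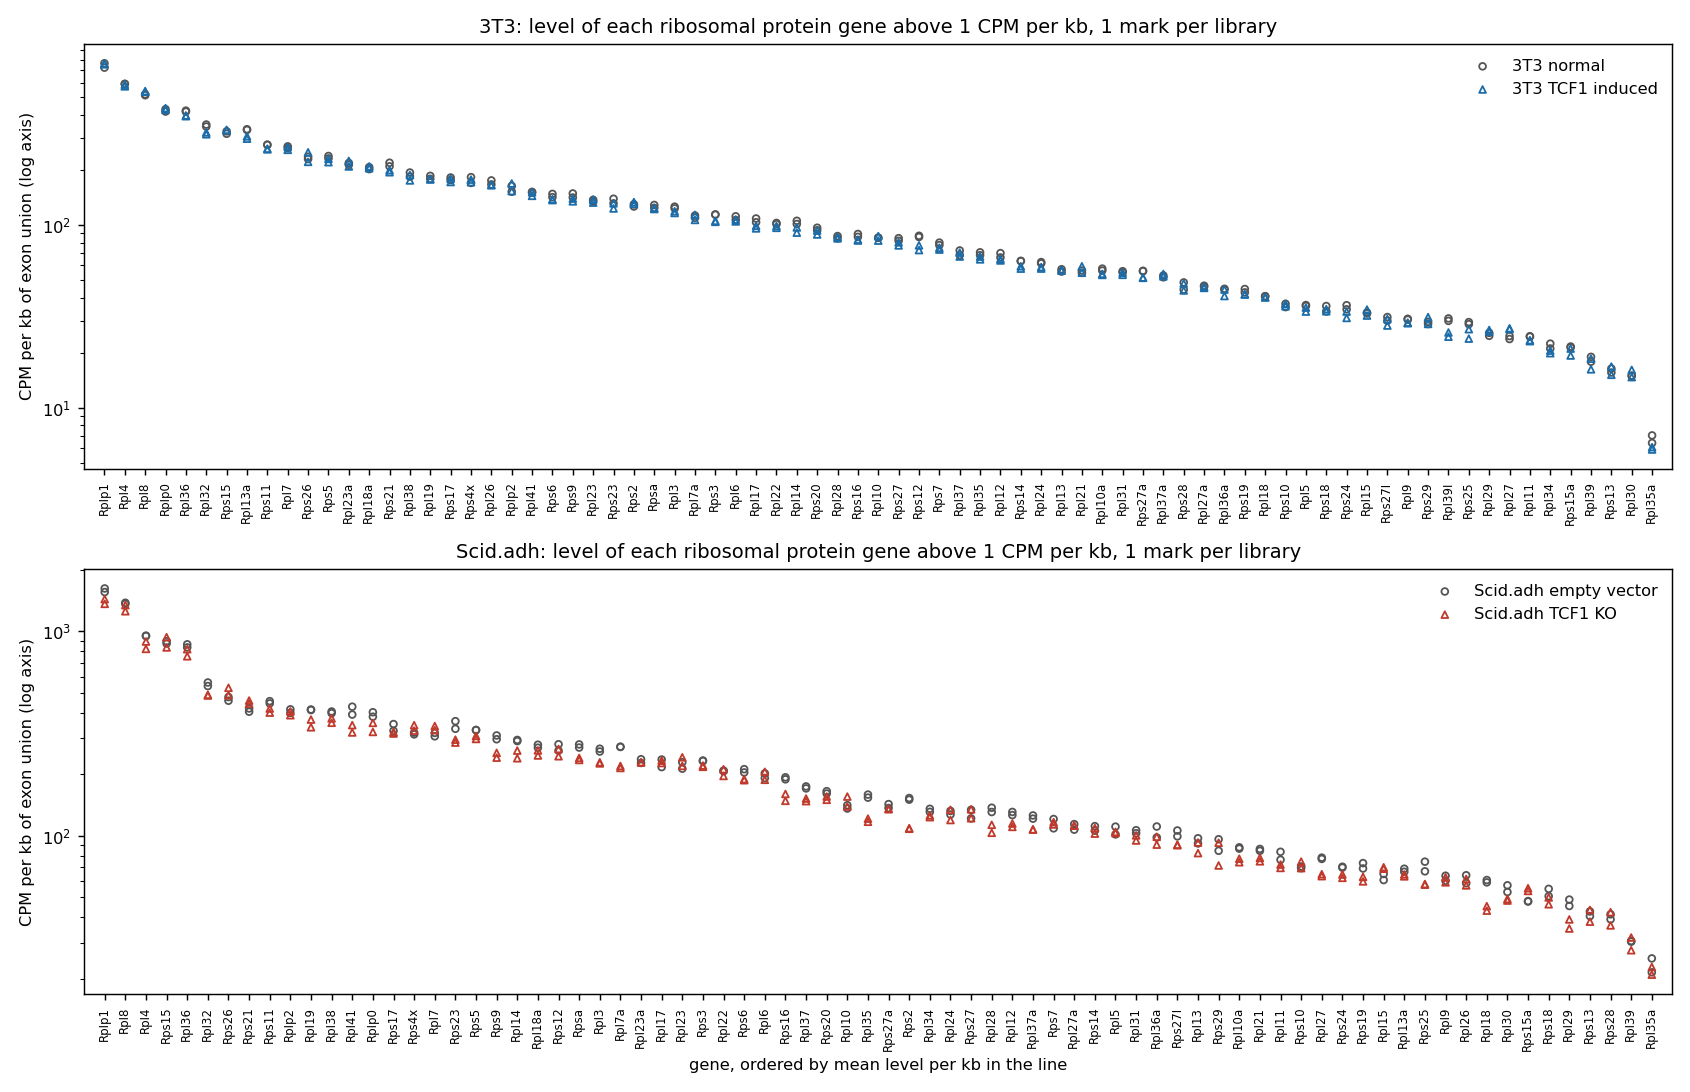
Level of the ribosomal protein genes shown, in CPM per kb of exon union (log axis), with 1 mark per library, ordered by the mean in 3T3 (top) and Scid.adh (bottom). On this length Rplp1 leads and Rpl35a closes the order in both lines. The marks of the 2 groups of a line lie close together compared with the spread between genes.

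Levels differed between the lines, in tables that were counted separately, and most of these genes were higher in Scid.adh. The median was 84.9 CPM per kb in 3T3 and 138 in Scid.adh. Rpl34 was at 57.5 CPM in normal 3T3 and at 352 CPM in Scid.adh with the empty vector, a 6.12-fold higher value there. Rpl26, which binds the p53 mRNA among its other roles, was 2.78-fold higher in 3T3 (246 against 88.6 CPM). Rpl13a, which leaves the ribosome under interferon to join a translational silencing complex, was 4.89-fold higher in 3T3 (702 against 143 CPM). The exons of Rpl13a overlap those of Gm45713 on the same strand. Gm45713 was at 640 and 630 CPM in normal 3T3, or 90.6% of Rpl13a, and at 1.21 and 0.427 CPM in Scid.adh. How reads in shared exons were counted in 3T3 is not given in the sources used here, and for Rpl13a a difference between the lines and one in counting cannot be told apart.

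Of the paralogs of core proteins, Rpl39l and Rps27l were expressed. Rpl10l, a testis paralog of Rpl10, had 0 counts in all 4 libraries of 3T3 and 0, 0, 1 and 2 counts in Scid.adh. Rpl3l, the muscle paralog of Rpl3, had 7, 3, 5 and 1 counts in 3T3 and 0, 2, 7 and 4 in Scid.adh. Rpl39l, the paralog of the exit tunnel protein Rpl39, was expressed in fibroblasts, at 25.6 and 24.8 CPM in normal and 21.4 and 20.3 CPM in induced 3T3. In Scid.adh it had 1 count in 1 knockout library and 0 in the other 3. Rps27l, a p53 target, was present in both lines, at 24.4 and 25.6 CPM in normal 3T3 and 81.1 and 86.6 CPM in Scid.adh with the empty vector.

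In 3T3, induction of TCF-1 left the ribosomal protein mRNAs close to their starting level. Of 78 genes tested, 13 fell and none was called higher at an adjusted p under 0.05. At an unadjusted p under 0.05, 21 were lower and 1 was higher. Of all 18185 tested genes, 8043 had such a p in either direction. DESeq2 called 4 of the family lower and none higher. Over all tested genes 18.3% were called lower and 18.5% higher, so the share of falls, 16.7%, was near the background. Among 2243 other genes of the family's level, 35.3% were called lower and 27.5% higher, a larger share in each direction than in the family. DESeq2 called 11.2% of all genes lower and 10.9% higher. The median log2 change was -0.06 over the ribosomal protein genes, a fall of 3.97%, against 0.00037 over all genes tested.

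Rps12, a protein of the small subunit's beak, was at 177 and 174 CPM in normal and 148 and 157 CPM in induced 3T3. Both induced libraries lay below both normal ones, and the fall was 0.21 on the log2 scale (SE 0.0424, adjusted p = 9.31e-05). Rpl13a was at 705 and 698 CPM in normal and 625 and 644 CPM in induced 3T3, without overlap. Its log2 change was -0.14 (SE 0.0317, adjusted p = 0.000241), and the overlapping Gm45713 gave -0.14 as well. Rps12 and Rpl13a were the only 2 genes of the 13 that were called lower in all 16 alternative settings.

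Rps25, needed for internal initiation on some viral mRNAs, was at 77.1 and 79.1 CPM in normal and 64.3 and 72.4 CPM in induced 3T3, a log2 change of -0.20 (SE 0.056, adjusted p = 0.00387). The induced libraries were lower but stood further apart than the normal ones. Rpl39l fell by 0.27 (SE 0.0842, adjusted p = 0.00994), the largest log2 change of the family. It is also among the least abundant, with 282 to 432 counts per library. Rpl32, a large subunit protein, fell from 340 and 332 to 301 and 308 CPM (log2 change -0.14, SE 0.0355, adjusted p = 0.00116). Rpl35a was just as low, at 24.9 and 22.6 CPM in normal and 20.8 and 21.5 CPM in induced 3T3, but its change of -0.17 did not pass (SE 0.0861, adjusted p = 0.131).

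Rps3, at the mRNA entry site and a DNA repair enzyme in vitro, was at 511 and 510 CPM in normal and 472 and 466 CPM in induced 3T3, a fall of 0.12 (adjusted p = 0.00227). Rpl14, Rpl17, Rps14, Rps21, Rps24 and Rps27a also fell, by 0.12 to 0.14 on the log2 scale. At the top of the order, Rpl27 was at 36.5 and 37.9 CPM in normal and 41.8 and 41.3 CPM in induced 3T3. The groups did not overlap, yet the log2 change of 0.16 missed the threshold (SE 0.0667, adjusted p = 0.0556). Rpl29, Rpl8, Rps15, Rps2 and Rpl21 followed with log2 changes from 0.04 to 0.06, none of which passed. Rplp0, a common reference gene for PCR, was at 712 and 691 CPM in normal and 721 and 705 CPM in induced 3T3, and the groups overlapped (log2 change 0.02, adjusted p = 0.595).

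**Figure D2:**
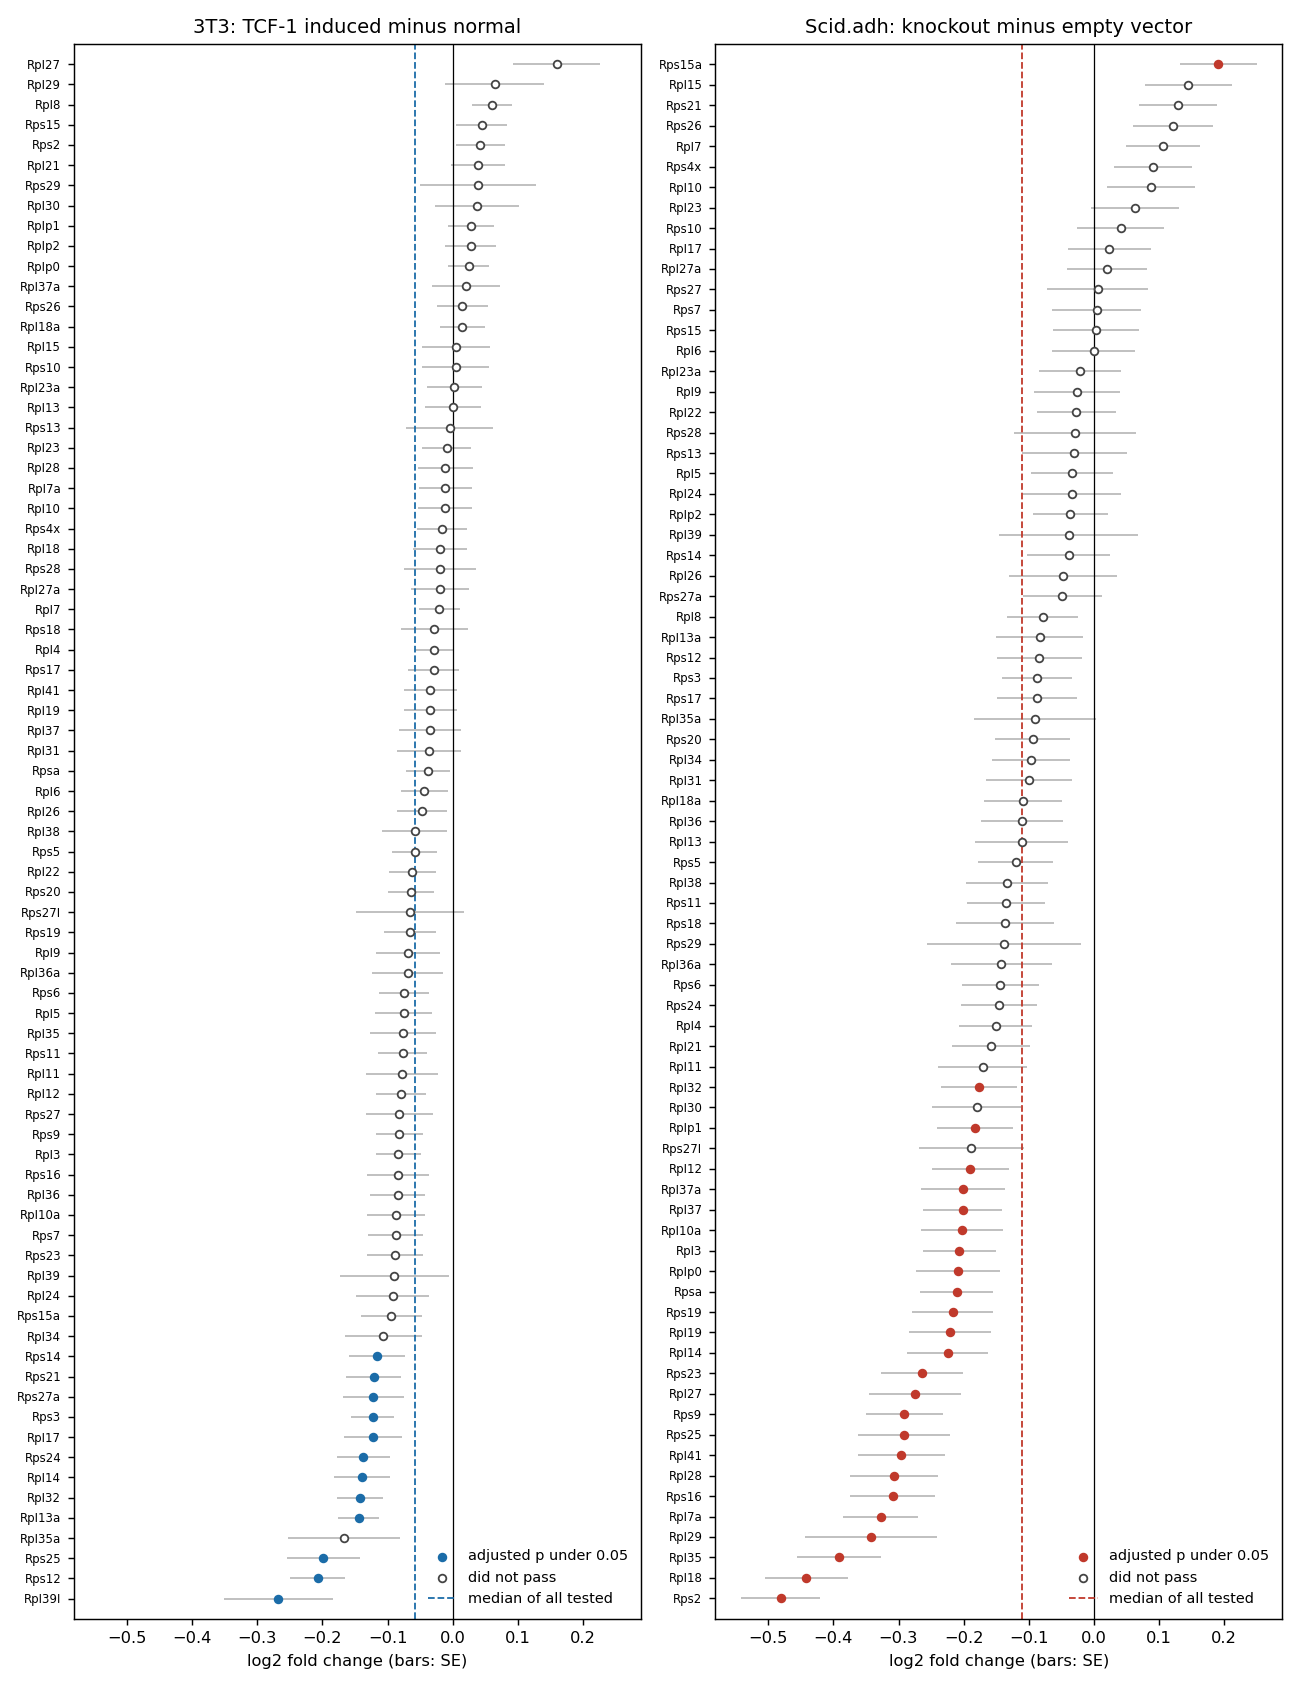
Log2 fold change of tested ribosomal protein genes with its standard error, induced minus normal 3T3 (left) and knockout minus empty vector in Scid.adh (right). Filled points passed an adjusted p of 0.05 and the dashed lines mark the medians of -0.06 and -0.11 over all tested, with a wider spread on the right.

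In Scid.adh, a subset of ribosomal protein mRNAs was lower in the libraries labelled knockout, whose Tcf7 level was still 646 and 624 CPM. Of 77 genes tested, 24 fell (31.2%) and 1, Rps15a, rose, while 15.9% of all tested genes were called lower and 15.6% higher. DESeq2 called 13 lower and none higher, against 9.04% and 7.37% of all genes. The median log2 change was -0.11 over the family, a fall of 7.36%, and -0.0039 over all genes.

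Rps2, which lines the mRNA entry tunnel, was at 280 and 275 CPM in the control libraries and at 198 and 199 CPM in the knockout. Both knockout libraries lay well below the controls, and the log2 change was -0.48 (SE 0.0609, adjusted p = 0.000123), a loss of 28.4%. Rpl18, a large subunit protein mutated in some patients with Diamond-Blackfan anaemia, was at 239 and 246 CPM in the control and 183 and 174 CPM in the knockout. Its log2 change was -0.44 (SE 0.0637, adjusted p = 0.000314). Rpl35, at the exit of the peptide tunnel, was at 191 and 197 CPM in the control and 150 and 145 CPM in the knockout, a log2 change of -0.39 (SE 0.065, adjusted p = 0.000809). Rps2, Rpl18 and Rpl35 were the only 3 of the 25 called genes that kept their call in all 16 alternative settings.

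All 3 have antisense neighbours with overlapping exons, and the strand setting of the counts is not given in the sources used here. Snhg9, opposite Rps2, was at 1.22% of the level of Rps2 in the control. Sphk2, opposite Rpl18, was at 11.2% of Rpl18 and gave a log2 change of -0.17 that did not pass (adjusted p = 0.329). Arpc5l, opposite Rpl35, was at 31.2% of Rpl35 and rose by 0.26 (adjusted p = 0.0373), in the direction opposite to Rpl35.

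Rpl7a is a large subunit protein whose gene spans 3 small nucleolar RNA genes on its strand. It was at 485 and 484 CPM in the control and 391 and 382 CPM in the knockout. The fall of 0.33 (SE 0.0579, adjusted p = 0.00122) kept its call in 15 of 16 settings, all but the correction for expression level. Rps16, whose tail reaches the tRNA in the small subunit, fell by 0.31 (SE 0.0652, adjusted p = 0.00355), from 239 and 245 to 203 and 188 CPM. Rpl29 was at 51.1 and 54.9 CPM in the control and 43.9 and 39.6 CPM in the knockout. It is one of the less abundant members, and its change of -0.34 had the widest error of those called (SE 0.101, adjusted p = 0.0212).

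Of the stalk, Rplp0 was at 667 and 634 CPM in the control and 591 and 534 CPM in the knockout (log2 change -0.21, SE 0.065, adjusted p = 0.0267). Rplp1 was at 776 and 808 CPM and then at 717 and 680 CPM (log2 change -0.18, SE 0.0585, adjusted p = 0.031). Neither pair of groups overlapped, whereas those of Rplp2, the partner of Rplp1, did, at 827 and 860 against 840 and 805 CPM (log2 change -0.04, adjusted p = 0.666). Rplp0 kept its call in 9 and Rplp1 in 8 of 16 settings, and with DESeq2 neither passed (adjusted p = 0.0699 and 0.0881). The remaining 16 genes that fell did so by 0.18 to 0.31 on the log2 scale and included Rps9, Rps19, Rpl28, Rpl41 and Rpsa. Rpsa is also known as a laminin receptor.

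Rps15a, a small subunit protein that binds the core of its ribosomal RNA, ran the other way, at 300 and 299 CPM in the control and 347 and 337 CPM in the knockout. Its log2 change was 0.19 (SE 0.059, adjusted p = 0.026). It kept the call in 10 of 16 settings and its sign in all 16. Rpl15, Rps21, Rps26, Rpl7 and Rps4x came next with log2 changes of 0.09 to 0.14, and none of these passed. Rps21 was at 327 and 340 CPM in the control and 371 and 358 CPM in the knockout, without overlap (adjusted p = 0.121). Relative to the median of the family, Rps15a was higher by 0.30 and Rps2 lower, at -0.37.

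The number of genes called in Scid.adh moved with the scaling of the libraries, and abundant genes as a class lay lower in the knockout. Across all 11941 tested genes, the log2 change ran against the mean level (Pearson r -0.40, Spearman rho -0.37, a description across genes). In 3T3 this relation was near 0, with r 0.02. Among the family itself this relation was weak (r 0.09, 77 genes). Among 1122 other genes with the same level as the middle of the family (171 to 500 CPM), the median change in the knockout was -0.11, the same as that of the ribosomal protein genes, and 33.9% were called lower and 6.86% higher. The quartiles of the family were 0.171 apart on the log2 scale, and those of the other genes of its level 0.261. In 3T3, the 2243 other genes of the family's level had a median of -0.03, and the quartiles of the ribosomal protein genes were only 0.0775 apart against 0.321 for the other genes.

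**Figure D3:**
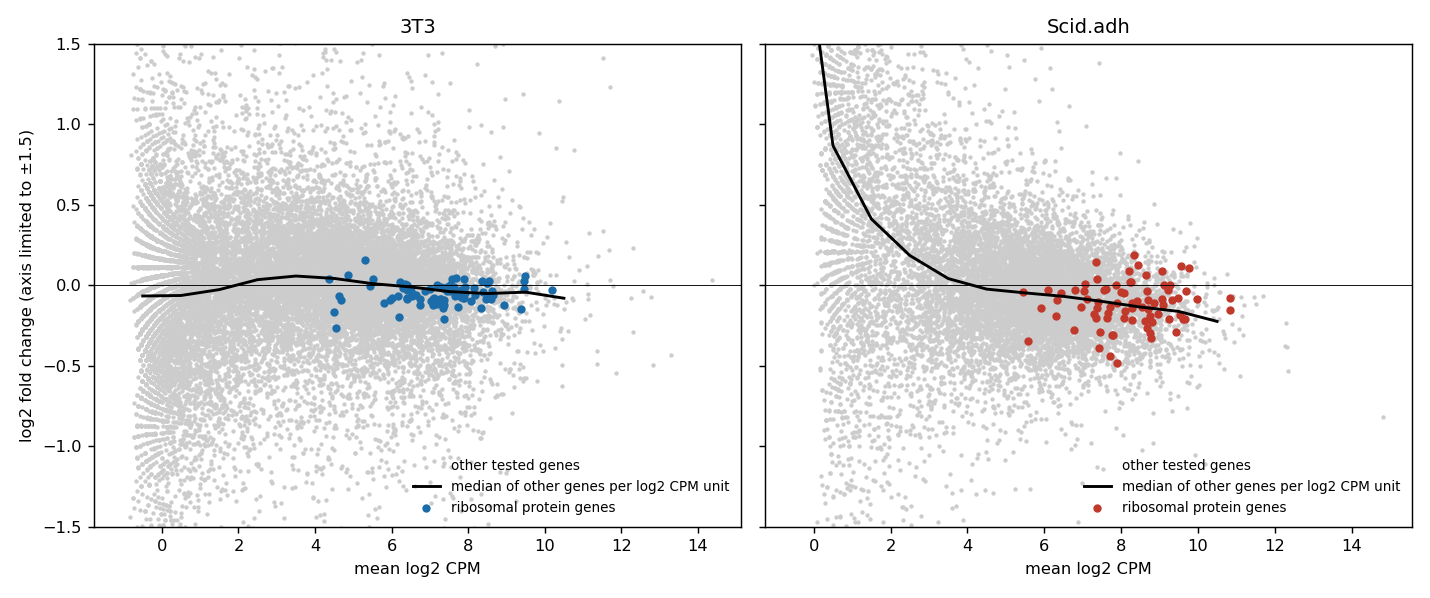
Log2 fold change against mean log2 CPM for all tested genes (grey, axis limited to ±1.5) and the ribosomal protein genes (coloured) in 3T3 (left) and Scid.adh (right). The black line is the median of the other genes per unit of log2 CPM. In Scid.adh it falls with level and passes through the ribosomal protein genes, and in 3T3 it stays near 0.

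With libraries corrected by loess for this trend, 4 genes were called lower in Scid.adh (Rps2, Rpl18, Rpl35 and Rpl29) and 8 higher (Rps15a, Rps21, Rps26, Rpl7, Rpl10, Rpl15, Rpl23 and Rps4x). The median was then 0.00798, and 12.2% of all genes were called lower and 13.1% higher. Upper-quartile factors gave 10 lower and 6 higher, against 10.2% and 20.6% of all genes. Scaling to the total gene counts gave 4 lower and 7 higher, with a median of 0.02 for the family and 0.13 for all genes, of which 7.68% and 24.8% were called. Scaled to their own summed counts, 5 ribosomal protein genes were lower and 6 higher, against 7.42% and 20.3% of all genes. This scaling moved the median of all genes to 0.10. In 3T3 the correction for level gave 5 lower and 3 higher, against 18.6% and 18.4% of all genes. Scaling to the summed counts gave 4 lower and 2 higher there, against 15.0% and 22.2% of all genes.

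Single libraries also moved the counts of genes called. Such fits leave 1 library in a group, so only medians are given. In Scid.adh the median of the family was -0.162 without knockout replicate 1 and -0.0776 without knockout replicate 2. It was -0.147 without empty vector replicate 1 and -0.0969 without empty vector replicate 2. The medians of all tested genes ran from -0.0034 to 0.00033 in these fits. The share of reads outside any gene was highest in knockout replicate 2, at 25.8%, against 21.3% to 22.3% in the other 3, and its part in these results was not tested. In 3T3 the median of the family was -0.0334 without normal replicate 1 and -0.0699 without normal replicate 2. It was -0.0247 and -0.0718 without induced replicates 1 and 2. The medians of all tested genes ran from -0.0052 to 0.0051 there.

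**Figure D4:**
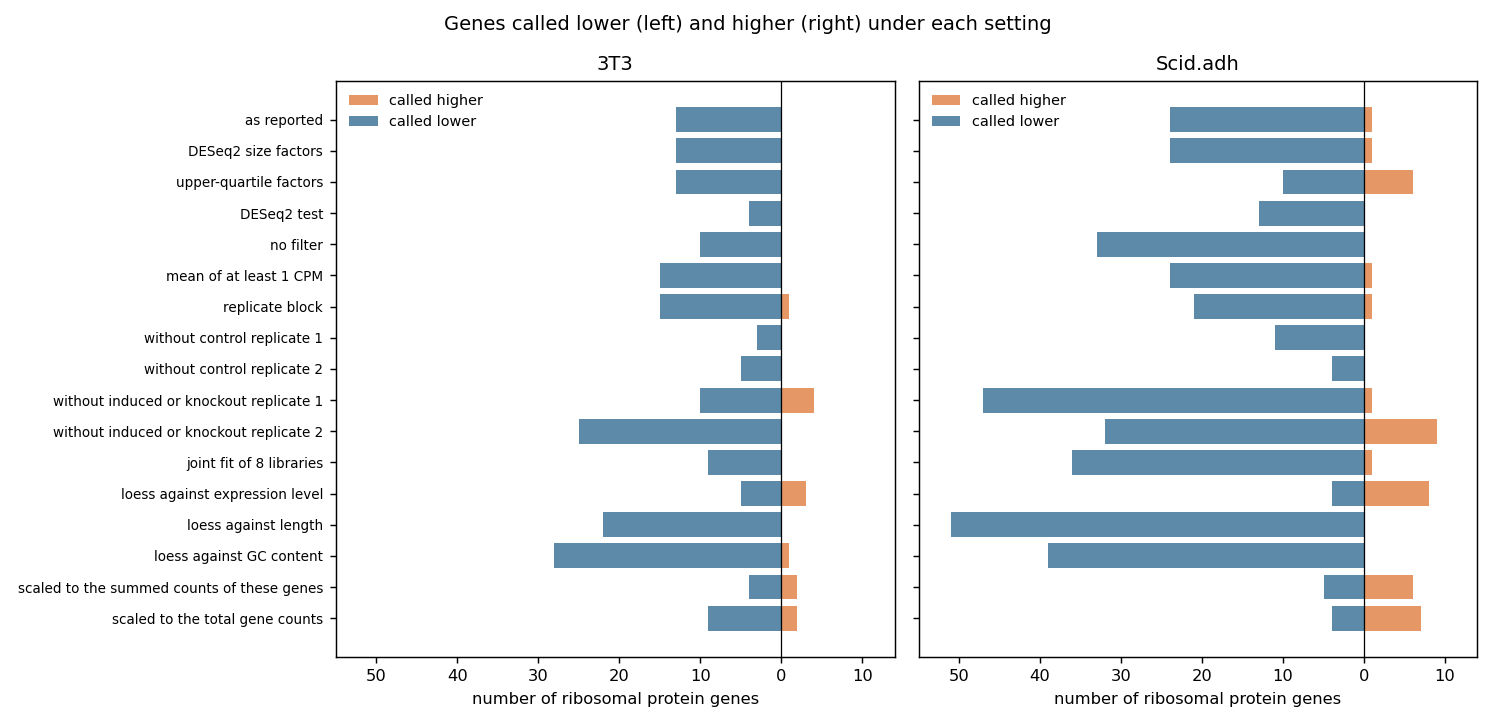
Number of ribosomal protein genes called lower (blue, to the left) and higher (orange, to the right) at an adjusted p under 0.05 in 3T3 and Scid.adh under the reported analysis and each alternative. In Scid.adh the length of the bars for genes called lower changes with the library left out. The correction for expression level gives 4 lower and 8 higher there.

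The change in 3T3 was then set against the change in Scid.adh gene by gene, as induced minus normal minus the quantity knockout minus empty vector. Of 78 genes in this joint test, 15 had a higher change in 3T3 and 2 a lower one, against 14.6% and 16.1% of all 15854 genes. As shares of the 78 these were 19.2% and 2.56%, and the median difference was 0.06, against -0.07 for all genes. Rps2 had the firmest difference, at 0.53 (SE 0.0741, adjusted p = 1.25e-06): in 3T3 it stayed at 237 and 231 CPM in normal and 238 and 244 CPM in induced cells. Rpl18 differed by 0.43 (SE 0.0766, adjusted p = 5.68e-05), with 164 and 165 CPM in normal and 162 and 163 CPM in induced 3T3. Rpl27 differed by 0.44 (SE 0.098, adjusted p = 0.000791), from a log2 change of 0.16 in 3T3 that did not pass and one of -0.27 in Scid.adh that did. Rpl7a differed by 0.32 (SE 0.0739, adjusted p = 0.00116).

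The 2 genes with a lower change in 3T3 were Rps15a, at -0.28 (SE 0.0779, adjusted p = 0.00587), and Rps21, at -0.25 (SE 0.0752, adjusted p = 0.0115). Rps21 fell in 3T3, from 177 and 169 to 157 and 161 CPM (log2 change -0.12, adjusted p = 0.019). Across the 77 genes tested in both lines the changes in the 2 lines had a Pearson r of -0.08, given as a description. Rpl14, Rpl32 and Rps25 were called lower in both lines, so these 3 were lower in the induced and in the knockout libraries. They are 23.1% of the 13 genes called in 3T3, where 31.2% of the family tested in Scid.adh fell there. They are 12.0% of the 25 called in Scid.adh, where 16.7% of the family tested in 3T3 fell there. The overlap was thus no larger than these shares. In Scid.adh, Rpl14 kept its call in 10, Rpl32 in 8 and Rps25 in 12 of 16 settings, and none of the 3 was called there after the correction for expression level.

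**Figure D5:**
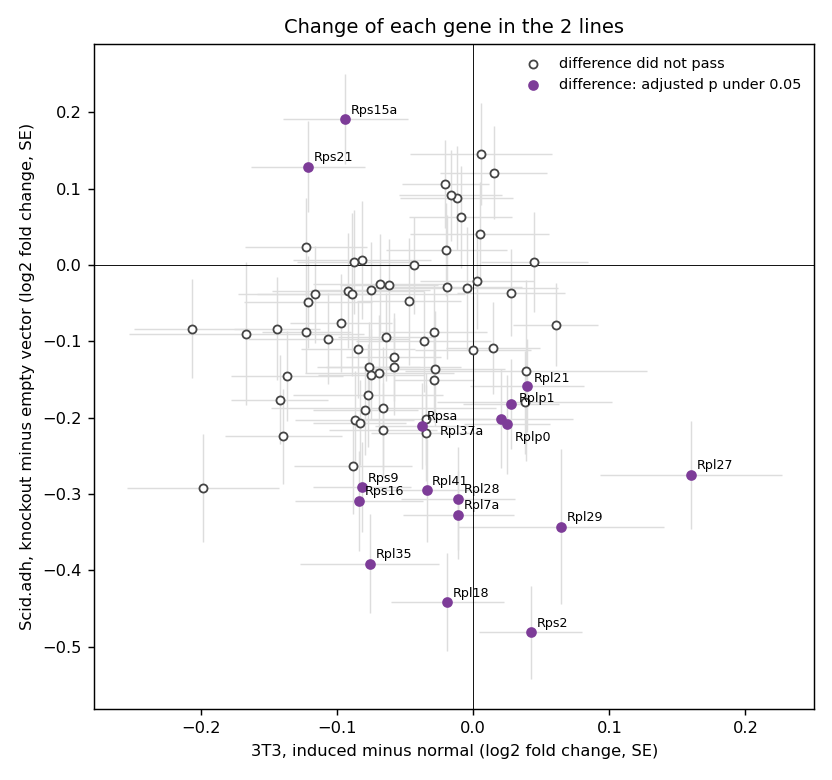
Log2 fold change of each gene in 3T3 (horizontal, induced minus normal) and in Scid.adh (vertical, knockout minus empty vector), with standard errors. Filled points differed between the lines at an adjusted p under 0.05. Rps2, Rpl18 and Rpl35 lie lowest and Rps15a and Rps21 lie in the upper left.

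The counts for the subunits and smaller groups stand beside shares over all tested genes of 15.9% lower in Scid.adh and 18.3% lower in 3T3, and several are near them. In Scid.adh, 7 of 31 small subunit genes and 15 of 43 tested large subunit genes outside the stalk fell, with medians of -0.09 and -0.11. In 3T3, 8 of 31 and 5 of 44 fell, with medians of -0.08 and -0.04. None of the 3 genes whose products bind Mdm2 when ribosome assembly fails, Rpl5, Rpl11 and Rpl23, was called in either line. In Scid.adh their log2 changes were -0.03, -0.17 and 0.06. Of 19 genes mutated in Diamond-Blackfan anaemia, an inherited failure of red cell production, 4 fell and 1 rose in Scid.adh, and 1 fell in 3T3. Of 29 genes that span a small nucleolar RNA gene on their strand, 8 fell in Scid.adh and 6 in 3T3. Of those without one, 16 and 7 fell. The 13 genes with a TOP-like start had a median of -0.09 in Scid.adh and the 47 others with an entry -0.13. In 3T3 these medians were -0.08 and -0.05.

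Base composition ran with the change in Scid.adh. The 39 genes with the lower GC content (39.1% to 51.0%) had a median of -0.04, with 6 lower and 1 higher. The 38 with the higher GC content (51.0% to 62.4%) had a median of -0.16, with 18 lower and 0 higher. Across 77 genes, Pearson r was -0.31 and Spearman rho -0.34, while over all tested genes r was 0.08 and rho -0.04. In 3T3 the relation over the family had the other sign (r 0.28, rho 0.22, 78 genes). Over all tested genes of 3T3 it had that sign too, with r 0.15 and rho 0.19. The part of GC content in these results was not tested beyond the GC correction, under which 39 genes were lower and none higher in Scid.adh, and 28 lower and 1 higher in 3T3. Over all genes this correction called 25.0% lower and 11.2% higher in Scid.adh, with a median of -0.11, and 19.1% lower and 20.3% higher in 3T3.

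Genes that build and serve the ribosome were counted as lists beside its proteins. Of 49 ribosome biogenesis genes, 36 fell in the Scid.adh knockout and none was called higher, with a median of -0.32, where 15.9% of all genes were called lower. Nolc1, a nucleolar chaperone of small nucleolar RNPs, was at 756 and 775 CPM in the control and 474 and 488 CPM in the knockout (log2 change -0.67, adjusted p = 4.78e-06). Tcof1, the treacle protein needed for ribosomal RNA transcription, fell by 0.67 as well (adjusted p = 8.93e-06). After the correction for expression level, 19 biogenesis genes were called lower and none higher, against 12.2% and 13.1% of all genes. Their median was then -0.20, while that of the ribosomal protein genes was near 0. Scaled to the total gene counts, 20 fell and 1 rose, against 7.68% and 24.8% of all genes. In 3T3, 10 of 48 rose and 10 fell, near the shares over all genes (18.5% higher and 18.3% lower). Gnl3 (nucleostemin) fell there by 0.53 (adjusted p = 2.12e-11) and Ncl (nucleolin) by 0.28 (adjusted p = 4.38e-11).

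Of 38 translation factors and ribosome-associated proteins, 19 fell in Scid.adh, among them Eif3d (log2 change -0.50, adjusted p = 6.04e-05) and Eif5a (-0.44, adjusted p = 0.000169). Of all genes tested there, 15.9% fell. After the correction for expression level, 6 of the list were lower and 4 higher in Scid.adh, against 12.2% and 13.1% of all genes. Scaled to the total gene counts 8 were lower and 2 higher, against 7.68% and 24.8% of all genes. In 3T3, 13 fell and 2 rose, against 18.3% and 18.5% of all genes. After the correction for level 8 fell and 9 rose there, against 18.6% and 18.4%. Eif3a fell by 0.33 in 3T3 (adjusted p = 3.51e-13). Of 15 RNA polymerase I genes 4 fell in Scid.adh, including Polr1a (log2 change -0.54, adjusted p = 0.000169), and in 3T3 3 fell and 1 rose. Mitochondrial ribosomal proteins gave 14 of 77 lower in Scid.adh, and 13 higher and 5 lower of 78 in 3T3. The shares over all genes were 15.9% lower in Scid.adh and 18.5% higher in 3T3, and scaled to the total gene counts the Scid.adh count was 4 lower and 4 higher. Of 23 regulators tested in 3T3, 6 rose and 8 fell, and of 22 in Scid.adh, 2 rose and 7 fell. Over all genes 18.5% rose and 18.3% fell in 3T3, and 15.6% rose and 15.9% fell in Scid.adh. Among the regulators, Myc was at 194 and 198 CPM in normal and 123 and 117 CPM in induced 3T3 (log2 change -0.71, adjusted p = 2.14e-18). Its level in Scid.adh was 502 and 494 CPM in the control and 351 and 371 CPM in the knockout (log2 change -0.46, adjusted p = 0.000147). Myc was therefore lower in both comparisons. Larp1, which binds TOP mRNAs, fell from 1007 and 1027 to 628 and 714 CPM in the knockout (log2 change -0.60, adjusted p = 4.16e-05).

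Several ribosomal genes stand just outside the naming rule. Fau, whose product is cut to release a small subunit protein, fell by 0.19 in Scid.adh (adjusted p = 0.0251). Rpl22l1, the paralog of Rpl22, fell in induced 3T3 from 26.3 and 28.1 to 17.7 and 19.2 CPM (log2 change -0.57, adjusted p = 5.48e-07). This change exceeded that of any gene inside the rule. In Scid.adh it was at 30.0 and 28.6 CPM in the control and 36.7 and 34.5 CPM in the knockout (log2 change 0.28), which did not pass (adjusted p = 0.0772).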

How the data were processed

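The authors deposited 1 file of gene counts per library, made from stranded total RNA libraries read in pairs. The submitters' processing notes name the GRCm38 (mm10) build, HTSeq 0.6.1 and STAR 2.5.0a. Counts of 3T3 come with a header line and without the share of reads outside any gene, which is given for Scid.adh. The layouts thus differ between the lines. For the annotation release, the strand setting and the counting of overlapping genes, nothing was found in the labels, headers or notes. The 3T3 files list 296 ribosomal protein pseudogenes and the Scid.adh files 3, and 59 of the 80 genes have named pseudogenes, so reads shared among copies make their counts uncertain.

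Symbols came from GENCODE M21, and lengths and exon overlaps were computed from it. Genes passing filterByExpr were scaled by TMM, and each line was tested with the robust quasi-likelihood F-test of edgeR 4.0.16 in R 4.3.3, with Benjamini-Hochberg adjustment over all tested genes and a call at an adjusted p under 0.05. All adjusted p-values come from this test unless DESeq2 1.42.0 is named. The difference between lines was the interaction term in a joint fit of 8 libraries. Medians and correlations are descriptions without a test. Library sums of the 80 genes were 230688 to 303047 counts, and with 2 libraries per group the number of libraries limits the precision. Replicate variation (edgeR's biological coefficient) came to 2.41% for 3T3 and 5.94% for Scid.adh.

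The genes and lists were chosen with earlier results of these data known. Named were Rplp0, the stalk, paralog and Mdm2-binding genes, the 6 highest and 6 lowest changes per line, the 3 highest and lowest levels, the 4 firmest differences between lines, and up to 2 called genes per other list and line. Rps3, Rps9, Rps19, Rpl14, Rpl17, Rpl26, Rpl28, Rpl34, Rpl41, Rpsa and the other members of counts were named after their values were seen. Lists were ribosome biogenesis, translation factors, RNA polymerase I, regulators, mitochondrial ribosomal proteins and cell type markers. Of 107 tested pseudogenes in 3T3, 3 fell and none was called higher.

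Alternatives were upper-quartile factors, DESeq2 and its size factors, dropping the filter, a minimum mean of 1 CPM, blocking on the replicate number, leaving out each library, a joint fit, loess corrections for level and length, a wider list and a list without paralogs. Corrections for GC content and scaling to the summed counts of the 80 genes or to the total gene counts were added after seeing the data. Steps were tested on simulated data. Protein sequences were not used here, and 1 of the 80 genes is counted but not reported singly.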

Additional observations from a re-analysis of the deposited data

Results flagged for a closer look

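For 17 ribosomal protein genes the change on induction in 3T3 and the change between knockout and empty vector in Scid.adh differed by the interaction test. Values are the log2 change in 3T3 minus that in Scid.adh. The difference was 0.53 for Rps2, 0.44 for Rpl27, 0.43 for Rpl18, 0.41 for Rpl29, 0.32 for Rpl7a, 0.32 for Rpl35, 0.30 for Rpl28 and 0.26 for Rpl41. It was 0.24 for Rplp0, 0.23 for Rps16, 0.23 for Rpl37a, 0.21 for Rplp1, 0.21 for Rps9, 0.20 for Rpl21 and 0.18 for Rpsa. The 2 genes with the opposite sign were Rps15a at -0.28 and Rps21 at -0.25. Of the 15 genes with a positive value, all but Rpl21 fell in the knockout, and none of the 15 passed in 3T3. They are 19.2% of the 78 genes tested jointly, against 14.6% of all genes called in that direction.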

How the results depend on the processing

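Over 16 alternatives none of the 13 genes called in 3T3 changed sign, and of the 25 called in Scid.adh only Rplp1 did, in 1. In 3T3, DESeq2 size factors, upper-quartile factors, dropping the filter, a minimum mean of 1 CPM, the joint fit, the wider list and the list without paralogs kept the number called lower within 1.5 times of 13. DESeq2 gave 4, the loess correction for level 5 with 3 higher, that for length 22, that for GC content 28 with 1 higher, scaling to the summed counts of the genes 4 with 2 higher, and scaling to the total gene counts 9 with 2 higher. Over all 18185 genes tested, the length correction called 3250 lower and 3405 higher, and scaling to the total gene counts 3079 and 3709. The median of the family was -0.0124 with the correction for level and -0.0138 with scaling to the summed counts. Leaving out 1 library, with the lone sample of its group taken to vary like the other group, gave a median from -0.0718 to -0.0247.

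In Scid.adh the number called lower was 10 with upper-quartile factors (6 higher), 13 with DESeq2 (0 higher), 33 with no filter (0 higher), 51 with the length correction (0 higher), 39 with the GC correction (0 higher), 4 with the level correction (8 higher), 5 with scaling to the summed counts (6 higher) and 4 with scaling to the total gene counts (7 higher). Over all genes, 2196 of 23610 were lower and 1604 higher with no filter. With the length correction 3625 of 11941 were lower and 1514 higher. The medians of the family were -0.0309, -0.191, -0.179 and -0.00353 with upper-quartile factors, length, GC and summed counts. The median turned to 0.00798 with the level correction and to 0.0242 with the total gene counts, and Rplp1 to 0.00446 with the level correction. The length, GC, summed count and total count settings moved the median of all genes to -0.12, -0.11, 0.10 and 0.13, so changes under them are relative to those values, while the level correction left it at 0.00384. The log2 ratio of the summed level was -0.11, and -0.0277 with upper-quartile factors. Leaving out 1 library gave 4 to 47 lower, 0 to 9 higher and a median from -0.162 to -0.0776.

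Of the differences between lines, 9 were higher with upper-quartile factors, 9 with a minimum mean of 1 CPM and 7 to 29 without 1 library. The number lower was 1 with no filter and 0 to 4 without 1 library. The cause of these shifts was not tested.

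With the replicate number as a block, 15 genes were lower and 1, Rpl27, higher in 3T3, 21 lower and 1 higher in Scid.adh, and 13 higher and 2 lower in the difference. Over all genes the block called 3577 of 18185 lower in 3T3 and 2010 of 11941 in Scid.adh. In the difference it called 2280 of 15854 higher and 2505 lower. Rplp1 was not called in Scid.adh with the block (adjusted p = 0.0715). Deviations of same-numbered libraries had correlations of 0.0124 in 3T3 and 0.00147 in Scid.adh over all tested genes, and of 0.18 and -0.02 over genes above a log2 CPM of 5. With 2 pairs per line and no label that ties the numbers together, they were not taken to pair the samples. With the longest transcript as length, the median level rose from 84.9 to 127 CPM per kb in 3T3 and from 138 to 245 in Scid.adh. With 2 libraries per group, changes as large as that of Rpl30 in Scid.adh (-0.18, adjusted p = 0.0597) missed the threshold.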

Other observations

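Some genes with exons overlapping a ribosomal protein gene differed widely in level between the 2 sets of tables. Gm28037, on the same strand as Rpl24 with shared exons, was at 63.4 and 65.3 CPM in normal 3T3, or 101% of Rpl24, and is not among the genes of the Scid.adh tables. Tlcd1, antisense to Rpl23a, was at 139 and 135 CPM in normal 3T3, or 75.1% of Rpl23a, and at 12.5 and 10.6 CPM in Scid.adh, or 5.87%. Cand2, antisense to Rpl32, was at 91.3 and 85.2 CPM in normal 3T3 and at 4.63 and 2.46 CPM in Scid.adh. Wdr38, antisense to Rpl35, was at 23.1 and 24.2 CPM and at 2.22 and 2.03 CPM. The part of counting in these values was not tested.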
